A study of Bos taurus with 8 samples.

Results

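DPP4 (dipeptidyl peptidase 4) and most of the enzymes grouped with it here cut peptide chains after a proline. The 8 genes considered here were DPP4, FAP, DPP8, DPP9, PREP, PRCP, DPP7 and DPP3. Their array probes were taken by accession: every probe whose RefSeq mRNA belonged to one of these genes was used. Of the 8 genes, 7 had at least 1 probe, out of 12603 genes matched on the array, and they had 17 probes in all. DPP9 had 0 matched probes and was not analysed here. The set was chosen by measured signals of these arrays, with the comparison of low- and high-nutrition fetuses known beforehand, so the values of its genes in that comparison are given as a description, with no test.

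Liver RNA was measured in 8 fetal calves of Japanese Black cattle on 1-colour Agilent bovine arrays, 1 fetus per array. The low-nutrition group (LN, n = 4, fetuses L5, L6, L8 and L9) came from dams fed 60% of the nutritional requirement during gestation. The high-nutrition group (HN, n = 4, fetuses L1, L2, L3 and L10) came from dams fed 120%. Both groups were taken at 8.5 months post-conception, at day 260 ± 8.3 of gestation, and no group fed the full requirement was analysed here. By the methods, the arrays used the lightest fetuses of LN and the heaviest of HN, so diet and fetal weight cannot be told apart. The series text speaks of RNA pooled within each group, whereas each array is labelled with 1 fetus, and the arrays of a group gave different values.

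DPP4 sits on the cell surface, and is also shed into blood, where it removes the first dipeptide of hormones and chemokines such as glucagon-like peptide 1. In the liver it is known from the bile canalicular membrane of hepatocytes, and it is also carried by T cells, where it is called CD26. FAP is its closest relative and belongs to fibroblasts, DPP8 and DPP9 act in the cytosol, PREP cuts inside short peptides, PRCP and DPP7 work in lysosomes, and DPP3 is a cytosolic zinc enzyme of a different fold. The study also measured DPP4 by quantitative PCR, and its primers are shown because they name the transcript on which the DPP4 finding rests, the RefSeq mRNA NM_174039, the accession of the DPP4 array probes too. Each primer has 22 bases, 10 of them G or C, and is written 5′ to 3′, and the PCR values were not analysed here.
DPP4 forward primer: gctgaatatggaaacagctcca
DPP4 reverse primer: tgcctccattgcttcacatagt

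The arrays had 43803 spots each, of which 32635 to 33371 were well above background in LN and 33254 to 34369 in HN, and 0 were saturated. Probes with such a spot on 4 or more arrays, 33439 in number, were taken as detected. The 17 peptidase probes passed this mark on every array, with scanner intensities from 7.57 to 4319. All values that follow are log2 signals after quantile normalization unless called intensities, and the level of a probe is never set against that of another gene. Over all detected probes, 0 passed an adjusted limma p of 0.05 (lowest adjusted p = 0.634), and 2113 (6.32%) had an unadjusted p of at most 0.05. In a clustering of all probes, L6, L9 and L3 stood apart from the other 5 fetuses. LN and HN lay on 1 slide each and were scanned separately, and the effects of slide and of diet cannot be told apart. Hepatocyte markers were at a mean log2 signal between 17.36 and 17.55 in all 8 fetuses, with 9 of 10 markers detected. These markers lie at the bright end, where quantile normalization holds the arrays to the same values, so equal hepatocyte content cannot be read from this.

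DPP4 gave lower signals in LN than in HN with all 3 of its probes, by amounts that differed between the probes. The brightest probe by mean log2 signal over the 8 fetuses was A_73_P277986, though A_73_P049751 was brighter in L5 and in HN. A_73_P277986 gave log2 signals of 6.70 in L5, 7.17 in L6, 6.49 in L8 and 7.40 in L9, against 7.48 in L1, 7.03 in L2, 7.61 in L3 and 8.57 in L10. L6 and L9 were above L2, so the groups overlapped, and L10 was the highest fetus. The means were 6.94 ± 0.42 in LN and 7.67 ± 0.65 in HN (SD, n = 4 each), a difference of -0.73 (SE 0.33), or a signal 1.66-fold higher in HN. Of all detected probes, 1.36% had a difference as low or lower. Without L10 the difference was -0.43, and without L6, L9 and L3 it was -1.10.

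The second DPP4 probe, A_73_P049751, gave 7.21 in L5, 5.07 in L6, 4.95 in L8 and 5.68 in L9, and 7.82 in L1, 7.34 in L2, 7.66 in L3 and 8.89 in L10. Every LN fetus lay below every HN fetus, though L5 lay close to the lowest of them, L2. Group means were 5.72 ± 1.04 and 7.93 ± 0.67, and the difference of -2.21 (SE 0.52), 4.61-fold, was the 6th largest decrease among the 33439 detected probes. The third probe, A_73_104913, gave 6.53 in L5, 5.19 in L6, 4.21 in L8 and 5.34 in L9, and 6.95 in L1, 6.52 in L2, 7.15 in L3 and 8.12 in L10. Here L5 and L2 were level and the other 3 LN fetuses were below all HN fetuses. The difference was -1.86 (SE 0.49), 3.64-fold. With normexp background correction in place of the processed signal, the differences of these probes were -1.29 and -0.94.

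**Figure D1:**
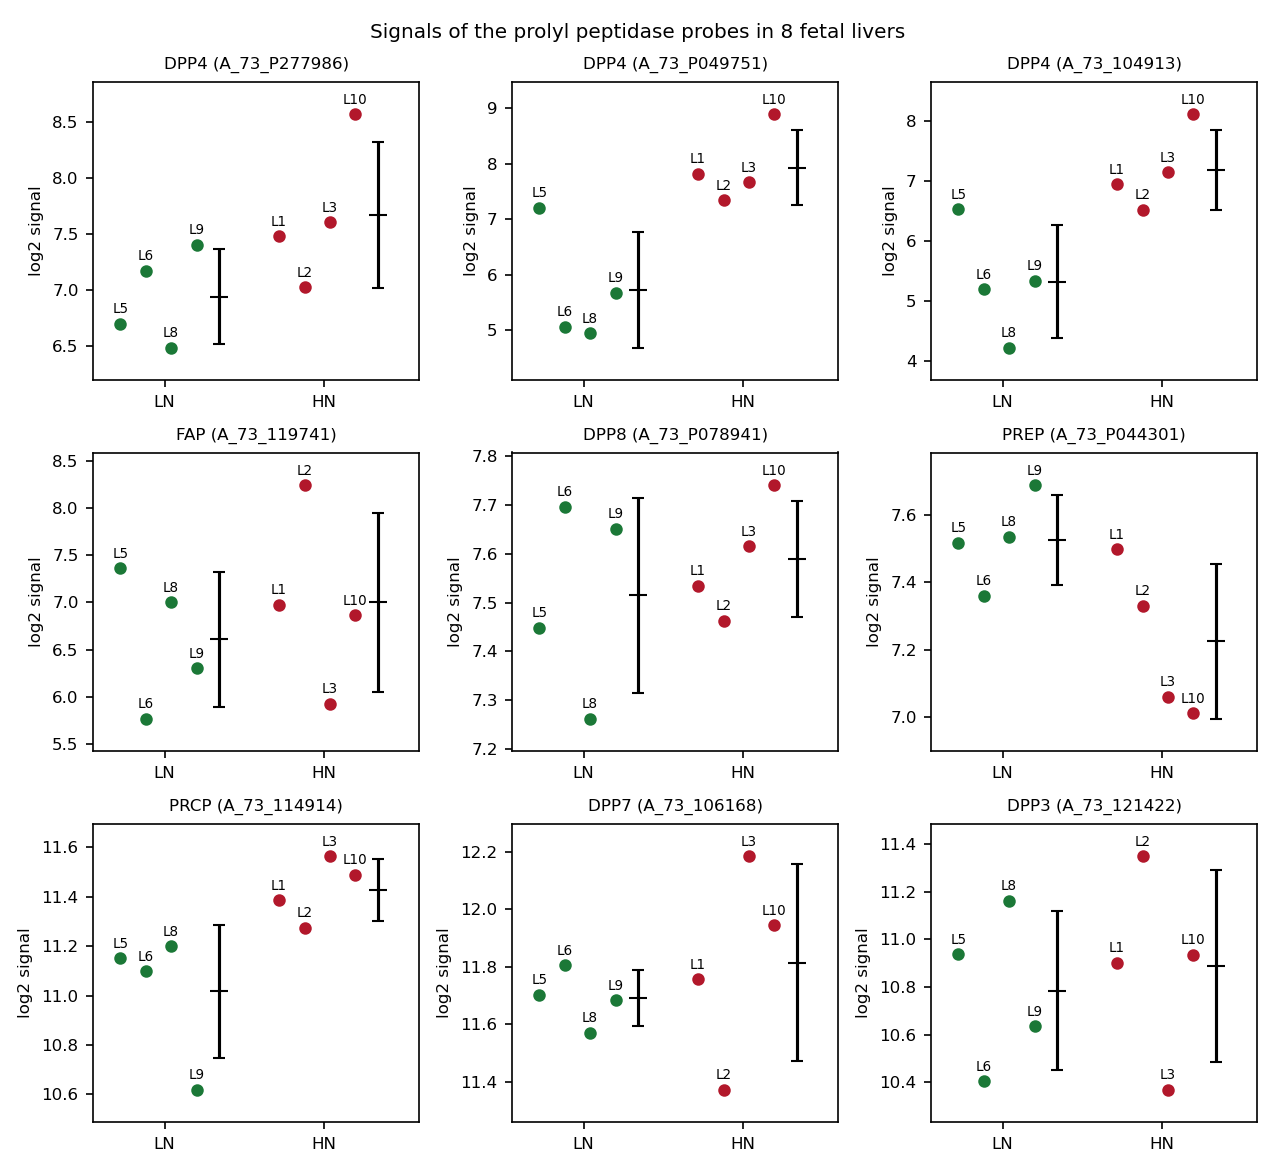
Log2 signal (vertical axis, a separate range in each panel) of the 3 DPP4 probes and of the brightest probe of each other gene in the LN (green) and HN (red) fetuses. Each point is 1 fetus with its name above it, and the bar beside each group is its mean ± SD (n = 4). In the DPP4 probe A_73_P049751 and in PRCP every LN point lies below every HN point, whereas in the other panels the groups overlap.

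The spread between fetuses was unlike in the probes of DPP4, which parted in L6, L8 and L9 but not in L5. In HN, the brightest probe minus A_73_P049751 was -0.34 in L1, -0.32 in L2, -0.058 in L3 and -0.33 in L10, so the probes kept close to 1 distance there. In LN the same gap was -0.51 in L5 but 2.10 in L6, 1.54 in L8 and 1.73 in L9. For the brightest probe minus A_73_104913 the gap was 0.53 in L1, 0.51 in L2, 0.46 in L3 and 0.45 in L10, and it was 0.17 in L5, 1.98 in L6, 2.27 in L8 and 2.07 in L9. L5 thus lay nearer to the HN fetuses than to the other LN fetuses in both gaps. Across the 8 fetuses A_73_P049751 and A_73_104913 correlated at r = 0.98, and the brightest probe correlated with them at 0.68 and 0.75. The probes share each fetus's RNA and array, so these are descriptions with no test. The probe sequences were not at hand, so where in the DPP4 transcript each probe binds is not given.

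**Figure D2:**
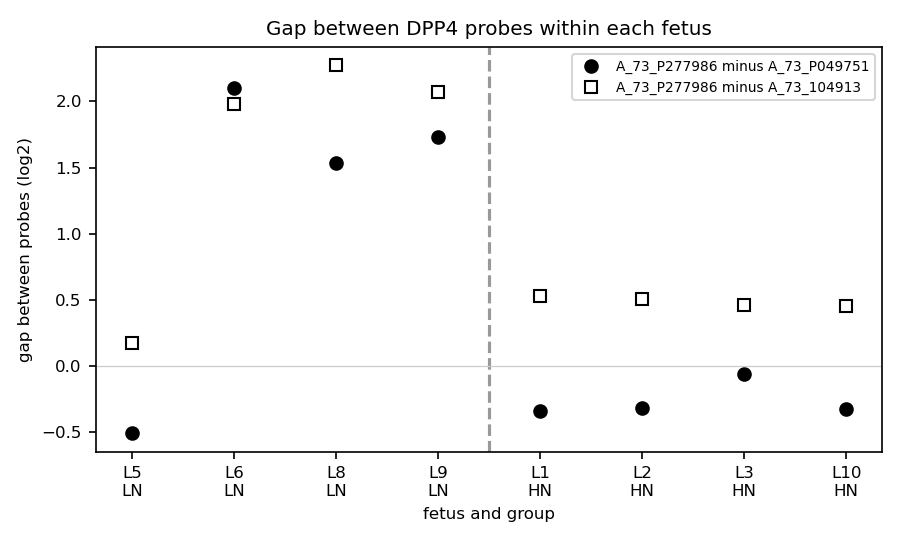
Gap in log2 signal between the brightest DPP4 probe and each other DPP4 probe (vertical axis) in each fetus (horizontal axis, LN left and HN right of the dashed line). Filled circles are the gap to A_73_P049751 and open squares the gap to A_73_104913: L6, L8 and L9 lie between 1.54 and 2.27, and L5 and the HN fetuses between -0.51 and 0.53.

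The intensities behind these values were low. A_73_P049751 had an intensity of 183 in L5, 24.6 in L6, 31.0 in L8 and 41.6 in L9, against 195 to 425 in HN. A_73_104913 had 18.0 to 32.7 in L6, L8 and L9, and 111 in L5. For the brightest probe the intensities were 92.6 to 136 in LN and 163 to 341 in HN, so the groups did not overlap before the arrays were normalized. The arrays differed in brightness, however. By the 75th percentile of their intensities, L6 and L9 were the dimmest arrays and L5 was the brightest. After normalization L6 and L9 lay above L2 in this probe, so no separation of the groups is read from its intensities.

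FAP, a serine protease of activated fibroblasts that cuts collagen fragments and other peptides after proline, varied more between fetuses than between groups. Its brightest probe, A_73_119741, gave 7.36 in L5, 5.77 in L6, 7.00 in L8 and 6.31 in L9, and 6.97 in L1, 8.24 in L2, 5.93 in L3 and 6.86 in L10. The means were 6.61 ± 0.71 in LN and 7.00 ± 0.95 in HN, with a difference of -0.39 (SE 0.50), smaller than the SD of either group. L2 was the highest fetus, and without it the difference was 0.020, whereas without L3 it was -0.75. The second FAP probe, A_73_P358551, followed the first at r = 0.98 and gave a difference of -0.38 (SE 0.57), which was 0.069 without L2 and -0.87 without L3. In the RefSeq gene table FAP lies near DPP4 on chromosome 2, with GCG, the gene of glucagon, between them. GCG was on the array but not detected, and neither was SLC4A10, the neighbour on the other side of DPP4. The mean of the DPP4 probes correlated with the brightest FAP probe at r = 0.15 (n = 8 fetuses).

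DPP3, which cuts dipeptides from small peptides such as enkephalins and angiotensins, shared the pattern of FAP in its brightest probe. This probe, A_73_121422, gave 10.94 in L5, 10.41 in L6, 11.16 in L8 and 10.63 in L9, and 10.90 in L1, 11.35 in L2, 10.37 in L3 and 10.94 in L10. As for FAP, L2 was the highest, and L6 and L3 were the lowest. The difference was -0.10 (SE 0.24), and the groups overlapped. Without L3 it was -0.28, and without L2 it was 0.049. The brightest probes of FAP and DPP3 correlated at r = 0.94 across the 8 fetuses and at 0.94 after each group's mean was taken out. The second DPP3 probe, A_73_P292306, gave 5.11, 4.66, 5.31 and 5.40 in L5, L6, L8 and L9 and 5.40, 5.42, 4.98 and 4.65 in L1, L2, L3 and L10. It correlated with the first at 0.50 and with the FAP probes at 0.51 and 0.47, and its difference was 0.0057 (SE 0.23). That difference was -0.15 without L10, 0.16 without L6 and -0.18 with scaling to the 75th percentile.

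The FAP probes and the brightest DPP3 probe moved between fetuses with the markers of stellate cells and fibroblasts. All 13 of these markers, among them COL1A1, COL3A1 and PDGFRB, were detected, and their mean log2 signal was 10.75 to 10.90 in LN and 10.33 in L3 to 11.39 in L2 in HN. The mean of the markers correlated with the FAP probes at r = 0.85 and 0.91 and with the brightest DPP3 probe at 0.86, but with the second DPP3 probe at 0.34. The same FAP and brightest DPP3 probes ran against the means of other cell types, at -0.76 to -0.80 with endothelial markers, -0.64 to -0.65 with macrophage markers and -0.42 to -0.60 with T cell markers, the last at -0.71 to -0.84 within groups. They ran with hepatocyte markers at 0.46 to 0.61 and with cholangiocyte markers at 0.41 to 0.48. The part of any of these cells in the levels of FAP and DPP3 was not tested. In whole tissue, fewer cells of a type and less RNA per cell cannot be told apart.

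**Figure D3:**
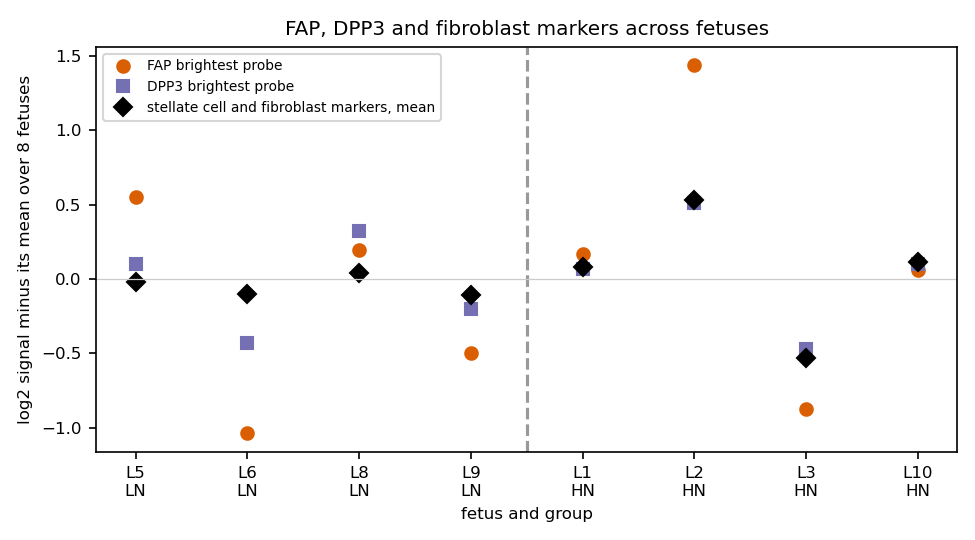
Log2 signal minus its mean over the 8 fetuses (vertical axis) of the brightest FAP probe (circles), the brightest DPP3 probe (squares) and the mean of 13 stellate cell and fibroblast markers (diamonds) in each fetus (horizontal axis, LN left and HN right of the dashed line). All 3 are highest in L2 (1.44 for FAP, 0.51 for DPP3, 0.53 for the markers), and L3 has the lowest values of DPP3 (-0.47) and of the markers (-0.53).

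PRCP, a lysosomal carboxypeptidase that removes the last amino acid after a proline from peptides such as angiotensin II, was lower in every LN fetus than in every HN fetus with both of its bright probes. A_73_114914 gave 11.15 in L5, 11.10 in L6, 11.20 in L8 and 10.62 in L9, and 11.39 in L1, 11.28 in L2, 11.56 in L3 and 11.49 in L10. L9 stood well below the other LN fetuses, which came close to L2. The means were 11.02 ± 0.27 and 11.43 ± 0.13, and the difference was -0.41 (SE 0.15). A_73_P251096 gave 9.39 in L9 to 10.08 in L8 within LN and 10.13 in L2 to 10.38 in L10 within HN, a difference of -0.37 (SE 0.17). Here L8 and L2 were nearly level. Before the arrays were normalized the groups overlapped in both probes, with intensities of 1278 to 2934 in LN and 2566 to 2996 in HN for A_73_114914, and of 545 to 1326 and 1087 to 1364 for A_73_P251096. Without L9 the differences of these probes were -0.28 and -0.22, and without L6, L9 and L3 they were -0.21 and -0.20. The third PRCP probe, A_73_P290191, was dim, with intensities of 7.57 to 16.5, and its groups overlapped with a difference of -0.10 (SE 0.19), which was 0.029 without L9.

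PREP, a cytosolic peptidase that cuts small peptides such as vasopressin after internal prolines, had a higher mean in LN. Its probe, A_73_P044301, gave 7.52 in L5, 7.36 in L6, 7.53 in L8 and 7.69 in L9, and 7.50 in L1, 7.33 in L2, 7.06 in L3 and 7.01 in L10. L2, L3 and L10 were below all LN fetuses, whereas L1 was above L6. The means were 7.52 ± 0.13 in LN and 7.23 ± 0.23 in HN, and the difference of 0.30 (SE 0.14) lay between 0.23 and 0.39 when single fetuses were left out. PREP and the brightest PRCP probe ran in opposite directions across the fetuses (r = -0.80, and -0.59 after each group's mean was taken out).

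DPP7, a lysosomal dipeptidyl peptidase of quiescent lymphocytes and other cells, had 4 probes with lower means in LN and overlapping groups. The brightest, A_73_106168, gave 11.70, 11.81, 11.57 and 11.68 in L5, L6, L8 and L9 and 11.76, 11.37, 12.18 and 11.94 in L1, L2, L3 and L10. The LN fetuses lay close together and the HN fetuses spread around them, with a difference of -0.12 (SE 0.17). It was -0.27 without L2 and -0.00022 without L3. A_73_P111796 gave 8.27, 7.52, 8.06 and 7.53 in LN and 8.23, 8.04, 8.29 and 8.28 in HN, in the same order of fetuses, a difference of -0.37 (SE 0.19). L5 and L8 lay within the HN range there, and L6 and L9 lay below it. A_73_P442006 behaved like it (r = 0.99) and gave -0.43 (SE 0.21), and the dim probe A_73_P356646 gave -0.21 (SE 0.27). For this dim probe the difference was -8.5e-05 without L9, -0.38 without L8 and -0.040 with normexp. Without L6, L9 and L3 the differences of these 3 dimmer probes were -0.023, -0.033 and 0.32. For A_73_P111796 and A_73_P442006 they were -0.34 and -0.40 without L3 alone, -0.26 and -0.29 without L6, and -0.26 and -0.32 without L9. The brightest probe correlated with the other DPP7 probes at 0.27 to 0.31. It ran with the mean of the macrophage markers at 0.86 and against that of stellate cells and fibroblasts at -0.83. The other DPP7 probes were at 0.34 to 0.53 and at -0.21 to 0.020.

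DPP8, a cytosolic relative of DPP4 that restrains inflammasome sensors together with DPP9, had nearly equal means in the groups. A_73_P078941 gave 7.45 in L5, 7.70 in L6, 7.26 in L8 and 7.65 in L9, and 7.53 in L1, 7.46 in L2, 7.62 in L3 and 7.74 in L10. The means were 7.51 ± 0.20 and 7.59 ± 0.12, so the difference of -0.074 (SE 0.13) was within the SD. A_73_P262616 gave -0.15 (SE 0.25) and followed the first probe at r = 0.87. Without L6, L9 and L3 the differences were -0.22 and -0.47. With single fetuses left out they were -0.13 to 0.011 for the first probe, which turned without L8, and -0.36 without L6 to -0.0027 without L5 for the second.

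Over the 17 probes, 15 had a lower mean in LN, beside 49.7% of all detected probes. Every LN fetus lay below every HN fetus in 3 probes, 1 of DPP4 and 2 of PRCP, beside 1.69% of all detected probes, and every LN fetus lay above in 0 probes, beside 2.44%. Nothing is read from these counts, since the genes were chosen with this comparison known and the probes of a gene share its transcript. L6 and L9 were the lowest LN fetuses in 8 of the 17 probes, the fetuses that stood apart over all probes too.

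**Figure D4:**
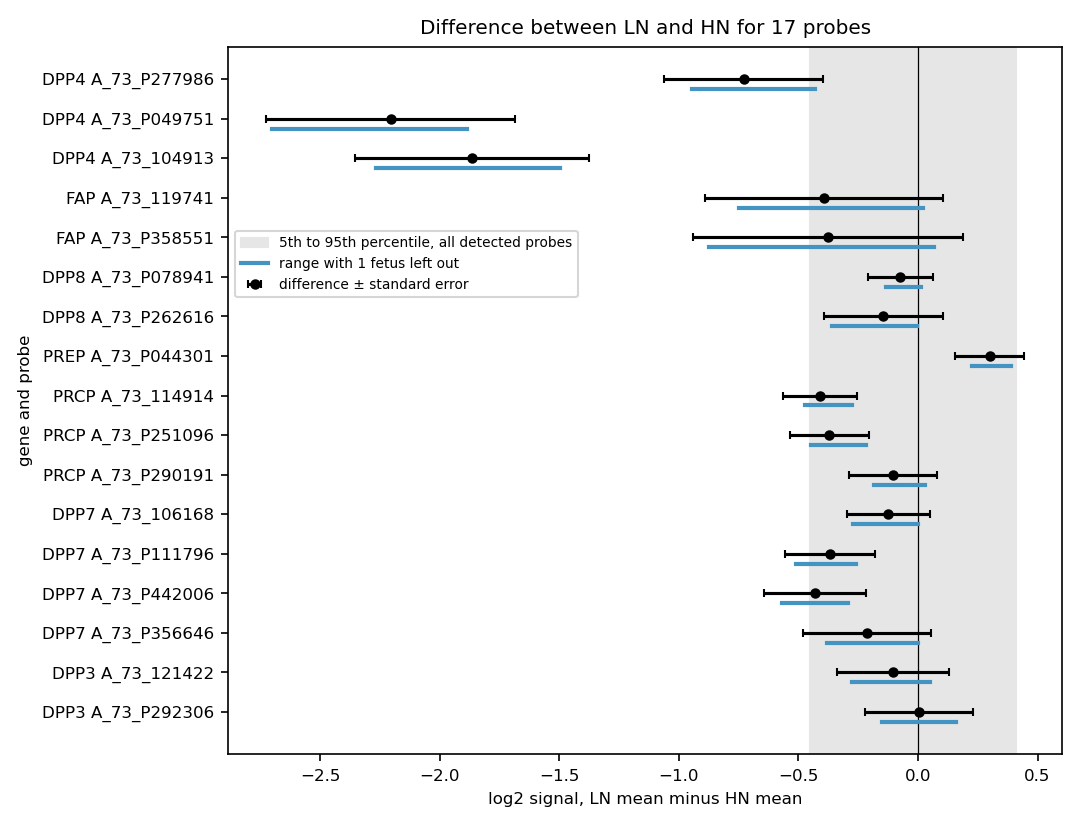
Difference in log2 signal, LN mean minus HN mean (horizontal axis), for the 17 probes (rows). Points are differences, black bars their standard errors, blue lines the range when 1 fetus is left out, and the grey band spans the 5th to 95th percentile over all detected probes (-0.45 to 0.41). The 3 DPP4 probes lie left of the band, and the other points lie within it.

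Markers of blood cells, among which T cells carry DPP4, also had different means in the groups. All 8 T cell markers were detected and all 8 had a lower mean in LN, with a median difference of -0.18, and the range of their mean log2 signal was 8.58 to 9.01 in LN and 8.84 to 9.40 in HN. CD247, a chain of the T cell receptor complex, was lower in every LN fetus than in every HN fetus (-0.45, SE 0.17, limma adjusted p = 0.765). The DPP4 probes correlated with the mean of the T cell markers at 0.69 to 0.80, and at 0.49 to 0.71 after each group's mean was taken out. This was not particular to DPP4. The brightest DPP7 probe correlated with that mean at 0.86 (0.88 within groups), and the DPP8 probes at 0.72 and 0.57 (0.73 and 0.55). The other DPP7 probes were at 0.14 to 0.37. Of the neutrophil markers 6 of 7 were detected and 5 of the 6 had a higher mean in LN, with mean log2 signals of 9.40 to 10.66 in LN and 8.64 to 10.07 in HN. These included MPO at 1.32 (SE 0.33, limma adjusted p = 0.760) and CATHL4 at 1.78 (SE 0.54, limma adjusted p = 0.760) above HN in every LN fetus. The DPP4 probes correlated with the mean of the neutrophil markers at -0.51 to -0.84, and at -0.22 to -0.75 after each group's mean was taken out. Among the other lists, 7 of 10 erythroid markers were detected and all 7 were higher in LN (median difference 1.32), with mean log2 signals of 10.34 in L5, 6.77 to 7.66 in the other LN fetuses and 5.69 to 7.44 in HN. L5 thus stood far above the other fetuses, and the other LN fetuses overlapped with HN. The DPP4 probes A_73_P049751 and A_73_104913 correlated with the mean of the erythroid markers at -0.069 and -0.025 across the 8 fetuses, but at 0.69 and 0.70 after the group means were taken out, and L5 was the highest LN fetus in both of these probes too. The brightest DPP4 probe was at -0.37, and at -0.092 within groups. KLF1, EPB42 and SLC4A1 were the erythroid markers not detected. Of 5 B cell markers 2 were detected, with a median difference of -0.25, and the DPP4 probes correlated with their mean at 0.51 to 0.76, or 0.15 to 0.43 within groups. The median differences of endothelial, macrophage and cholangiocyte markers were 0.088, -0.055 and 0.0064, and of hepatocyte markers 0.0066. Of the 5 cholangiocyte markers detected, 1 was higher and 0 were lower in LN at an unadjusted limma p of 0.05, beside 3.3% and 2.75% of all genes. With the mean of the cholangiocyte markers the brightest DPP4 probe correlated at -0.90, and at -0.94 within groups, and the other DPP4 probes at -0.41 and -0.52. With the mean of the hepatocyte markers the brightest probe correlated at -0.19, A_73_P049751 at 0.11 and A_73_104913 at 0.081, or -0.025, 0.62 and 0.52 within groups. That hepatocyte mean spanned only 17.36 to 17.55, a range bounded in part by the normalization. Other members had correlations of like size: the DPP8 probes were at -0.86 and -0.67 with the cholangiocyte mean, and the bright PRCP probes at -0.63 and -0.72 with the neutrophil mean. The part of these cells in the signals of DPP4 and of the other members was not tested.

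The genes whose products act with these peptidases were taken as 10 lists with 158 genes, of which 118 were detected. At an unadjusted limma p of 0.05, 2 of the 118 (1.69%) were lower and 1 (0.847%) was higher in LN, beside 2.75% and 3.3% of all 10860 genes tested, and 0 passed an adjusted p. Every LN fetus lay below every HN fetus in 0 of the 118 genes and above in 2, beside 1.56% and 2.59% of all genes. These 2 were HIF1A and, named after its values were seen, the lysosomal galactosidase GLA (0.24, SE 0.12). The median difference over the 118 genes was -0.036, beside 0.0075 over all genes.

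Of 27 peptides and chemokines that DPP4 can cut, 14 were detected, 9 with a lower and 5 with a higher mean in LN (median -0.15), and 0 passed the unadjusted threshold. The median was 0.025 with no filter on dim probes, which adds genes to the list, -0.28 with scaling to the 75th percentile and -0.058 without L5. The hormones GCG and GIP were not detected. The largest differences were in CCL3, a chemokine of macrophages (-0.67, SE 0.34), IGF1, the growth factor secreted by liver (-0.53, SE 0.28), and EPO, the red cell hormone (0.52, SE 0.50). Their receptors gave 3 lower and 8 higher means among 11 detected of 17 (median 0.079), led by the chemokine receptors CCR3 (0.37) and CXCR4 (0.26) and by IGF1R (0.21), and 0 passed. The groups overlapped in all of these named genes.

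Among the proteins that bind DPP4, 10 of 11 were detected, 5 lower and 5 higher, with a median of -0.027. They included COL1A1 (-0.46, SE 0.39), a collagen chain, and the leukocyte phosphatase PTPRC (-0.35, SE 0.31), and 0 passed the unadjusted threshold.

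Of the factors known to act on the DPP4 promoter, 8 of 9 were detected, 4 with lower and 4 with higher means (median 0.0019). IRF1, an interferon-induced activator, gave 10.58 in L5, 10.29 in L6, 10.16 in L8 and 9.88 in L9, and 11.12 in L1, 10.52 in L2, 10.92 in L3 and 10.49 in L10. L5 was level with the lowest HN fetuses and the other LN fetuses were below them, a difference of -0.54 (SE 0.20, limma unadjusted p = 0.024 and adjusted p = 0.760). HIF1A, the hypoxia-inducible subunit, was 10.80, 10.86, 10.81 and 10.79 in LN and 10.57, 10.52, 10.64 and 10.54 in HN, higher in every LN fetus (0.25, SE 0.098, limma adjusted p = 0.782).

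In the renin-angiotensin and kallikrein-kinin system, whose peptides PRCP and DPP3 cut, 16 of 21 genes were detected, 11 lower and 5 higher (median -0.074). CPN2, the regulatory subunit of the carboxypeptidase that trims kinins in plasma, was lower by the unadjusted test (-0.55, SE 0.22, limma adjusted p = 0.783). ENPEP, which cuts angiotensin II, gave -0.53 (SE 0.47), with overlapping groups, and was dim, with means of 3.75 in LN and 4.29 in HN.

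The other lists gave medians between -0.20 and 0.049, and 0 of their genes passed the unadjusted threshold. The bile canalicular membrane, where DPP4 sits in hepatocytes, had 9 of 14 genes detected, 3 lower and 6 higher (median 0.049), with the lipid flippase ATP8B1 at -0.27 (SE 0.27), the bile salt exporter ABCB11 at 0.16 (SE 0.30) and the sterol transporter ABCG8 at 0.15 (SE 0.24). All 30 lysosomal genes were detected, the compartment of PRCP and DPP7, 17 lower and 13 higher (median -0.036), with the protease CTSL at -0.36 and the sterol transporter NPC1 at 0.35. Of 17 cytosolic peptidases 15 were detected, 9 lower and 6 higher (median -0.0099), with the aminopeptidase NPEPPS at -0.26, TPP2 at 0.19 and the insulin-degrading enzyme IDE at -0.19. The other proline-specific or related peptidases had 5 of 9 genes detected, 2 lower and 3 higher (median 0.013), namely DPP10 at 0.21, XPNPEP3 at -0.10 and PEPD at 0.050 as the largest differences. The inflammasome genes downstream of DPP8 and DPP9 had 4 of 7 detected, all 4 with lower means in LN (median -0.20), among them the pore-forming GSDMD (-0.28), the adaptor PYCARD (-0.21) and the cytokine IL1B (-0.19). Without L6, L9 and L3 the median of these inflammasome genes was -0.0022, and it was -0.32 to -0.10 when single fetuses were left out.

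**Figure D5:**
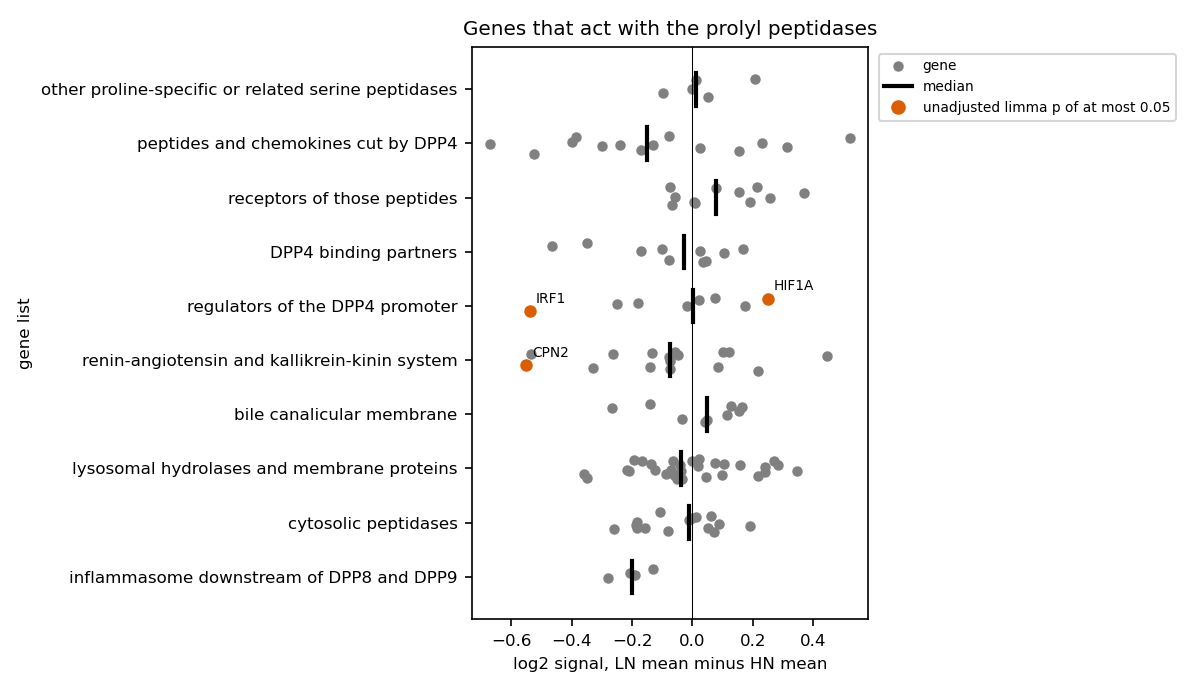
Difference in log2 signal, LN mean minus HN mean (horizontal axis), of the detected genes in the 10 lists (rows). Each point is 1 gene, the vertical bar is the median of the list, and orange points with names are the 3 genes with an unadjusted limma p of at most 0.05: IRF1 at -0.54, CPN2 at -0.55 and HIF1A at 0.25.

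The mean pattern of the DPP4 probes over the 8 fetuses was compared with 5038 genes whose SD was at least 0.25, as a description with no test. The closest were RUNX1 (r = 0.95), a transcription factor of blood cells, PAG2 (0.94), a pregnancy-associated glycoprotein, TTLL7 (0.93), a tubulin-modifying enzyme, SPTLC2 (0.93), a subunit of the enzyme that starts sphingolipid synthesis, and LCK (0.92), the kinase of the T cell receptor. LCK is also among the T cell markers. RUNX1 and PAG2 were dim and were well above background on 4 and 5 of the 8 arrays. The most opposite genes were CCDC181 (-0.96), SERPINE2 (-0.94), a protease inhibitor, and CGA (-0.94), the shared chain of pituitary hormones. CGA was dim and was well above background on 7 arrays. For PRCP the closest were UGT2B10 (0.94), a glucuronosyltransferase well above background on 6 arrays, BORA (0.90), a mitotic factor, and PARVG (0.90), an adhesion protein of blood cells. Without L9, 0 of these 3 stayed among the 50 closest to PRCP. The brightest PRCP probe correlated with the DPP4 probes at 0.36 to 0.66, and at -0.19 to 0.13 after each group's mean was taken out.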

How the data were processed

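RNA of 4 LN and 4 HN fetal livers was hybridised to 1-colour (Cy3) Agilent bovine arrays. The authors deposited scanner output of Feature Extraction 11.0.1.1, in which the processed intensity is background-subtracted, and flags for outlier spots and for spots well above background. A second deposited file holds 31068 probes as log2 values from the authors, who by the methods used quantile normalization in GeneSpring GX. The member probes differed from it by at most 0.044.

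From the intensities, control spots and outlier flags were left out (16 of 43653 probes were lost), spots of a probe were averaged, and log2 values were quantile normalized over 43637 probes. Accessions of 26740 probes were matched to 12603 genes of the RefSeq table (assembly ARS-UCD2.0). The array was designed on another build, so no coordinates are given. A list gene was taken at its brightest detected probe.

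The 2-sided limma test (version 3.58.1 under R 4.3.3, moderated by eBayes, no covariates) set LN against HN, and p-values were adjusted by Benjamini and Hochberg over 33439 detected probes. The functions were tested on simulated data. The members, lists, markers and alternatives were chosen with earlier results of these data known. Named genes were all members, per list the 3 with the largest difference and any at an unadjusted p of 0.05, and the genes most correlated with DPP4 and PRCP. Values of some genes under this rule are not reported here; list counts and medians still hold them. Marker genes with values are those whose groups did not overlap, chosen after their values were seen, and other markers are named as examples or as not detected. Alternatives were the authors' table, scaling to the 75th percentile, normexp with an offset of 50, array position as a block, no filter on dim probes, a filter asking for all 8 arrays, the mean over a gene's probes, and each fetus left out. Leaving out L6, L9 and L3 together was added after seeing the data.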

Additional observations from a re-analysis of the deposited data

Results flagged for a closer look

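In 34 groups of 4 fetuses (17 probes in LN and in HN), 2 held a fetus set apart from the others. Its gap to the nearest other fetus, as a share of the group's range, was above Dixon's critical value, which chance gives in about 1 in 20 groups. In the dim PRCP probe A_73_P290191, L9 had a log2 signal of 3.17, and the other LN fetuses had 3.66 to 3.74. In the DPP7 probe A_73_P442006, L2 had 7.97, and the other HN fetuses had 8.30 to 8.31.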

How the results depend on the processing

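No paired analysis was possible because the LN and HN fetuses share no replicate number. The 3 DPP4 probes were lower in LN and the PREP probe was higher in LN under all 12 alternatives. Of the differences of the 17 member probes under these alternatives, 199 stayed within the spread between fetuses and 5 did not: with normexp the DPP4 probes A_73_P049751 and A_73_104913 gave -1.29 and -0.94, and without L6, L9 and L3 the 3 dimmer DPP7 probes gave the values in the report. The number of member probes lower in LN was 12 to 16 when 1 fetus was left out. Probes with an unadjusted p of at most 0.05 numbered 1343 (without L10) to 2639 (without L3) when 1 fetus was left out, and 3790 without L6, L9 and L3, beside 2113 with all fetuses, and an adjusted p passed in 1 probe without L6. With Student's test in place of limma, 2285 probes passed the unadjusted and 0 the adjusted threshold. List genes at that threshold numbered 5 with normexp, 5 with no filter on dim probes, 9 without L6, L9 and L3, and 1 to 6 when 1 fetus was left out, beside 3. The count of 1 came without L8, L1 or L10, and that of 6 without L3. Of the 5 genes most like DPP4, 3 stayed among the closest 50 with the authors' table and 4 to 5 when 1 fetus was left out. Of the 3 most like PRCP, 2 stayed with the authors' table and 0 without L9. Of the list medians, 4 moved beyond the spread: that of the peptides cut by DPP4 as given in the report, and, without L6, L9 and L3, those of the other proline-specific peptidases (0.23), the promoter regulators (0.13) and the cytosolic peptidases (0.075). The inflammasome median kept its sign under all alternatives run on it, and the other 9 medians changed sign under 1 to 8 of them. The cause of these changes was not tested. The number of arrays, 4 per group, limits the precision. SDs measure the spread between these fetuses, and limma p-values set the group difference, with which slide and scan coincide, against that spread.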
